A study of Homo sapiens with 12 samples.

Results

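The response to NGFR siRNA was compared between H460 and H1299, a pair of human non-small-cell lung cancer cell lines, by subtracting the log2 fold change of siNGFR over siCont in H1299 from that in H460, gene by gene. All 12 libraries of the series entered the comparison. They fall into 4 groups of 3 biological replicates, namely H460 with siCont, H460 with siNGFR, H1299 with siCont and H1299 with siNGFR. The H1299 siNGFR titles carry a 3 after the word knockdown that the H460 titles lack. Its meaning is not given, so whether both lines received the same siRNA is not known here. All groups were grown in the same medium with serum and received an siRNA, so each fold change is against transfected control cells. H460 keeps wild-type p53 and H1299 lacks it. Ribosomal RNA was removed from total RNA before Ion Torrent sequencing. Of 64253 genes in the deposited table of read counts, 21583 passed a filter on low counts and were tested, and 92 of them had a response that differed between the lines.

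NGFR, the p75 neurotrophin receptor, binds neurotrophins together with co-receptors and has been described as a negative regulator of p53. The transcription factor p53 raises the transcription of genes that stop the cell cycle, repair DNA or kill the cell, and of MDM2, the ubiquitin ligase that degrades p53. The series sets a line with p53 beside a line without it, so the difference between their responses asks which genes answered NGFR siRNA unequally. Only 1 line stands for each p53 status, so p53 and every other difference between the lines cannot be told apart.

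The siNGFR and siCont libraries held 16672164 to 36116823 counts each. NGFR itself had 0 to 6 counts per library, too few for any fold change. CDKN2A, a gene known to be deleted in H460, had 0 counts in all 6 H460 libraries and 240 to 512 in the H1299 libraries. None of 7 endothelial markers passed the filter. Of the other markers, 3 of leukocytes, 4 of fibroblasts, 6 of neural cells and 4 of lung epithelium passed. None of them was called for the difference, where 0.158% of all genes tested were called higher and 0.269% lower in H460. So few markers say little, and a difference of responses does not show which cells were present. The replicates are labelled biological, with nothing on separate cultures, so p-values measure the spread among these libraries. In H1299 the siNGFR library of replicate 3 had a score of 15.9 on the second principal component, near the siCont libraries (18.9 to 37.6) and far from siNGFR replicates 1 and 2 (-45.8 and -52.8), and it received the lowest sample weight of the 12 in a limma voom fit (0.23). Results are given with it, as labelled, and the counts without it follow in their own paragraphs.

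At an adjusted p under 0.05 from edgeR's quasi-likelihood test with Benjamini-Hochberg adjustment over all 21583 genes, 34 genes (0.158%) had a higher response in H460 and 58 (0.269%) had a lower one. At an unadjusted p under 0.05 there were 3664. The same fit gave the response of each line. In H460, 195 of all genes (0.903%) rose and 266 (1.23%) fell, and in H1299, 64 (0.297%) rose and 44 (0.204%) fell. Sorted by these line responses, 41 of the 92 genes fell in H460 with no call in H1299, 19 rose in H460 with no call in H1299, 9 fell and 6 rose in H1299 with no call in H460, 2 moved in opposite directions with a call in each line, and 15 passed in neither line taken by itself. No gene was called in the same direction in both lines. Since the difference is made of the 2 line responses, this sorting is a description and was not tested. CPM (counts per 1e6 counts of the library, scaled by TMM) are relative to the rest of the library. A fall can therefore come from less RNA of that gene per cell, from fewer cells that express it or from a larger share of other RNAs. These cannot be told apart in bulk RNA.

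**Figure D1:**
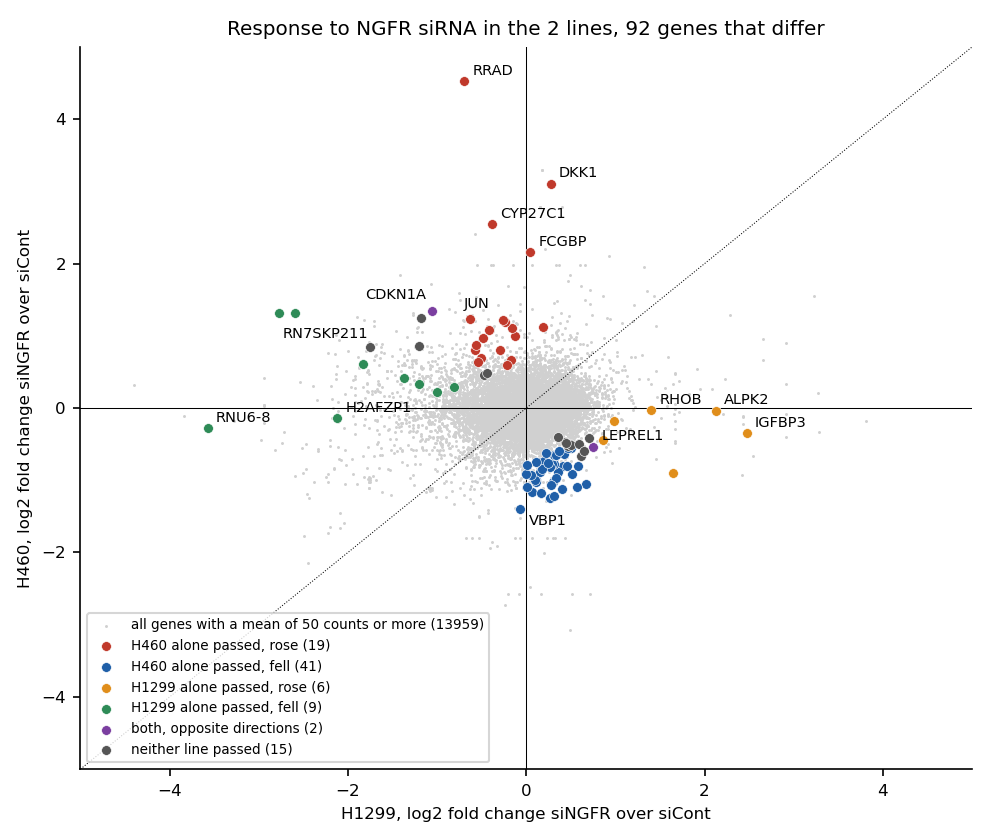
Log2 fold change of siNGFR over siCont in H460 (vertical axis) against H1299 (horizontal axis), with all 13959 genes of at least 50 counts on average in grey, the 92 genes that differ in the colour of their class, and a dotted line where both responses are equal. The genes that fell in H460 form one group below the centre, while DKK1 and IGFBP3 lie along separate axes.

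Among the 92 genes, 85 had opposite signs in the lines, as their choice by the difference favours, against 48.5% of the 13959 genes that averaged 50 counts or more. Across those 13959 genes the responses of the lines had a Pearson r of 0.0676, where genes are not independent replicates and each response rests on 6 libraries. The median standard error of a response was 0.169 in H460 and 0.171 in H1299 on the log2 scale, and that of the difference was 0.243. In H460 the siNGFR and siCont libraries did not overlap for 85 of the 92 genes, beside 22.6% of all genes tested, and in H1299 for 58 of 92, beside 19.5% of all genes. These values come from the contrast that chose the genes and are given as a description. With 1 library left out at a time, 12 of the 92 genes were called in each of the 12 fits. A further 18 were called in 6 to 11 fits and 62 in 1 to 5 fits. All 92 kept the sign of their difference, which their choice from the same libraries favours. The 12 genes were IGFBP3, RHOB, DKK1, JUN, CDKN1A, LEPREL1, CCNI, UBQLN1, PEG10, EMD, PCDH7 and H2AFZP1. The number of genes that differed fell to between 12 and 60 when any 1 of 10 libraries was left out, and rose to 155 without H1299 siCont replicate 3 and to 3955 without H1299 siNGFR replicate 3.

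**Figure D2:**
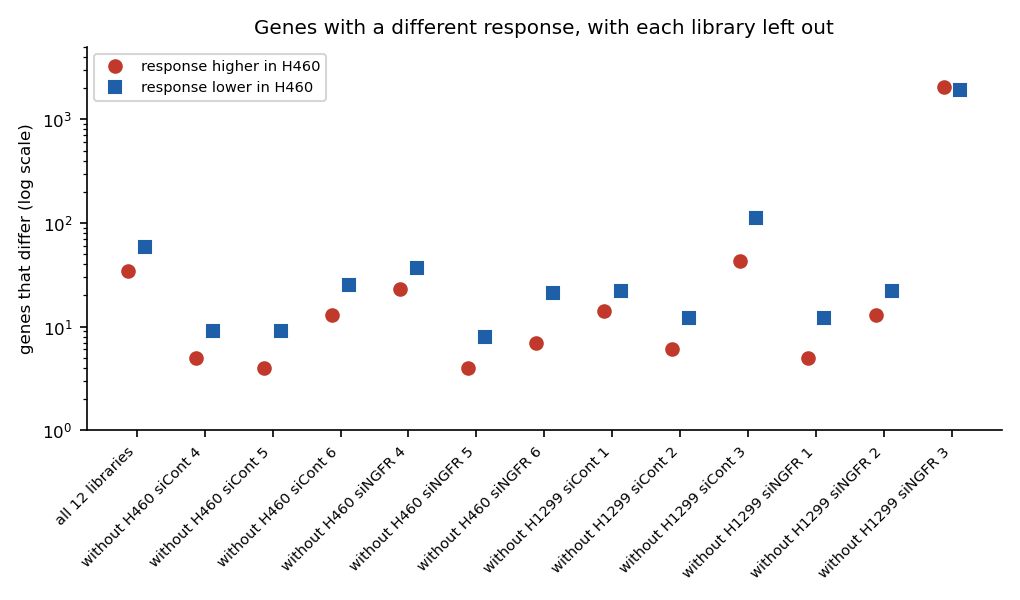
Number of genes whose response was higher (circles) or lower (squares) in H460 at an adjusted p under 0.05, on a log scale, with all 12 libraries and with each library left out. All 12 libraries gave 34 and 58 genes, and the fit without H1299 siNGFR replicate 3 gave 2049 and 1906.

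CDKN1A and LEPREL1 moved in opposite directions, with a call in each line when all 12 libraries shared one estimate of the spread. With each line fitted by itself none of the 92 genes had a call in both lines, and with a replicate block LEPREL1 kept its call in H1299 alone. CDKN1A, the gene of the cell cycle inhibitor p21 and a classic target of p53, lies on chromosome 6 from 36676460 to 36687339 (GRCh38, plus strand). It measured 41.3, 36.8 and 36.1 CPM in the H460 siCont libraries and 88.1, 90.6 and 110.4 CPM in the siNGFR libraries. In H1299 it measured 20.9, 20.6 and 19.4 CPM with siCont and 6.77, 7.82 and 14.5 CPM with siNGFR. Every H460 siNGFR library was above every siCont library and every H1299 siNGFR library was below, with replicate 3 the nearest to the controls. The log2 fold change was 1.34 (standard error 0.21, adjusted p = 0.00383 by edgeR) in H460 and -1.06 (standard error 0.22, adjusted p = 0.0465 by edgeR) in H1299. The difference was 2.40 (95% interval 1.76 to 3.04, adjusted p = 0.00468 by edgeR). Without replicate 3 the H1299 response was -1.40.

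LEPREL1 (now P3H2), which encodes a prolyl hydroxylase that modifies collagen, went the other way. Its levels in H460 were 49.7, 47.7 and 46.9 CPM with siCont and 36.1, 32.5 and 31.0 CPM with siNGFR. Its levels in H1299 were 4.71, 3.30 and 4.10 CPM with siCont and 7.19, 6.78 and 6.53 CPM with siNGFR. The groups did not overlap in either line, and all 3 H1299 siNGFR libraries lay close together. The response was -0.53 in H460 and 0.75 in H1299, a difference of -1.29 (95% interval -1.68 to -0.90, adjusted p = 0.00931 by edgeR).

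The 19 genes that rose in H460 alone had a median response of 1.08 in H460 and -0.29 in H1299, and 18 of them encode proteins. JUN, EMP1, DKK1 and FDXR, which rose in H460, are shown by the sequence at their start. They are 1 example each, in that order, of a motif of AP-1 and ATF, of AP-1, of the TATA box and of p53. RefSeq promoters (GRCh38.p14, 250 bases before to 50 after the start) were matched for 60 of the 92 genes. Capitals mark TGACNTCA in JUN, TGANTCA in EMP1, TATAAA in DKK1 and a p53 half-site in FDXR, searched on both strands.

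JUN (chr1:58783998-58784297, minus strand): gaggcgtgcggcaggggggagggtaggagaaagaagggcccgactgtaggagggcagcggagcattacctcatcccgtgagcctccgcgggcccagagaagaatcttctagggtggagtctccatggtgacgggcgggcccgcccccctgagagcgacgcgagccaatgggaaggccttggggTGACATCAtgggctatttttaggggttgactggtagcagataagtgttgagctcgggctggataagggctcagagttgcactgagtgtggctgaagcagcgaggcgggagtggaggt

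EMP1 (chr12:13196476-13196775, plus strand): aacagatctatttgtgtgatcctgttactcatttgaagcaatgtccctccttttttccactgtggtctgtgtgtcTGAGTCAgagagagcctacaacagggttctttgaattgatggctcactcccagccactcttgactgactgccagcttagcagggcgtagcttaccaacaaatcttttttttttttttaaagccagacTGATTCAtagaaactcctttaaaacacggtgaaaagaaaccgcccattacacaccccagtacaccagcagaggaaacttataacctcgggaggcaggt

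DKK1 (chr10:52314031-52314330, plus strand): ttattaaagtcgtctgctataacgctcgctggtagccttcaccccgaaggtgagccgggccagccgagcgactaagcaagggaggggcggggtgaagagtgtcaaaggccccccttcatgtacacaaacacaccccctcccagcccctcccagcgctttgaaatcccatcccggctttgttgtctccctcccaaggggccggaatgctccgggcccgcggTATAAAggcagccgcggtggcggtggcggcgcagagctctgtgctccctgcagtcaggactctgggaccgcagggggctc

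FDXR (chr17:74872945-74873244, minus strand): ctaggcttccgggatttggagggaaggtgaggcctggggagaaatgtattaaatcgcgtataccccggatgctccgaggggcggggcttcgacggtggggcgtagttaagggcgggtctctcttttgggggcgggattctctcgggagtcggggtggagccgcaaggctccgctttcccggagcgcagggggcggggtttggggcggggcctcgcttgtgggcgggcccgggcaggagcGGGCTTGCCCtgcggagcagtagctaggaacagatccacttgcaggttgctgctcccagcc

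TGACNTCA is an AP-1 and ATF element, and its match in JUN began at position -67 from the start. It was held by 1 of the 16 matched genes that rose in H460 alone (6.25%), by 3 of the 60 genes that differ (5.0%) and by 7.72% of 35116 promoters. TGANTCA, the shorter AP-1 element with its middle base free, was in 4 of 60 (6.67%) against 7.71% of all promoters, with a pair of matches in EMP1 at -175 and -48. TATAAA was in 1 of 60 (1.67%) against 11.5%, and a p53 half-site was in 1 of 60 (1.67%) against 6.63%. A full p53 site, made of a pair of half-sites 0 to 13 bases apart, was in 0 of 60 and in 0.0285% of all promoters. A match in this window is a description, and a window without one says nothing of sites elsewhere.

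DKK1, a secreted inhibitor of Wnt signalling, lies on chromosome 10 from 52314296 to 52318042. Among those of the 19 genes with at least 50 counts on average, it had the largest rise in H460. That average came mostly from H1299, with 81 to 261 counts per library. In H460 DKK1 held 5, 4 and 6 counts with siCont and 34, 36 and 42 with siNGFR. Its fold change in H460 thus rests on few counts. It measured 0.231, 0.141 and 0.205 CPM with siCont and 1.70, 1.51 and 1.81 CPM with siNGFR in H460. In H1299 it measured 6.22, 6.59 and 4.68 CPM with siCont and 6.85, 7.11 and 7.24 CPM with siNGFR. DKK1 was thus low in H460 with siCont, and with siNGFR it was still below every H1299 library. The response was 3.11 (standard error 0.28) in H460 and 0.27 (standard error 0.17, adjusted p = 0.351 by edgeR) in H1299. The difference was 2.83 (95% interval 2.13 to 3.54, adjusted p = 0.00403 by edgeR).

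JUN, the AP-1 subunit on chromosome 1 from 58780788 to 58784327, measured 4.94, 4.05 and 3.45 CPM with siCont and 8.71, 10.8 and 9.60 CPM with siNGFR in H460. In H1299 it measured 42.6, 47.0 and 43.4 CPM with siCont and 27.1, 22.9 and 35.9 CPM with siNGFR. The libraries did not overlap in either line, and the H1299 value nearest to siCont was again that of replicate 3. The difference was 1.86 (95% interval 1.35 to 2.37, adjusted p = 0.00479 by edgeR). The H1299 response of -0.63 did not pass by itself (adjusted p = 0.076 by edgeR), while without replicate 3 it was -0.73 (adjusted p = 0.000849 by edgeR). IER5 and EMP1 also rose in H460, with an H1299 response below 0 that did not pass by itself. IER5, an immediate-early response gene, had a response of 0.69 in H460 and -0.50 in H1299 (difference 1.20, adjusted p = 0.0119 by edgeR, called in 9 of the 12 fits without 1 library). EMP1, a tetraspan membrane protein, measured 3.23, 3.14 and 2.60 CPM with siCont and 5.71, 5.86 and 4.02 CPM with siNGFR in H460. In H1299, where it was far more abundant, EMP1 measured 81.6, 76.5 and 76.7 CPM with siCont and 48.4, 47.9 and 60.8 CPM with siNGFR (difference 1.38, adjusted p = 0.0167 by edgeR, called in 7 of 12 such fits).

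MDM2 and TNFRSF10D, a decoy receptor for the death ligand TRAIL, rose in H460 with values in H1299 close to 0. MDM2 measured 28.1, 30.6 and 28.5 CPM with siCont and 61.5, 61.4 and 50.6 CPM with siNGFR in H460. In H1299 MDM2 measured 22.9, 31.1 and 25.3 CPM with siCont and 22.2, 24.6 and 25.8 CPM with siNGFR, with the groups overlapping. The difference of MDM2 was 1.12 (95% interval 0.72 to 1.52, adjusted p = 0.0192 by edgeR, called in 6 of 12 fits without 1 library). By library size without TMM it was 0.63 (adjusted p = 0.0593 by edgeR), and TNFRSF10D, LAMB3, LIF and RAB27B lost their calls there too, with adjusted p of 0.0525 to 0.0725. TNFRSF10D had a response of 1.11 in H460 and -0.16 in H1299 (difference 1.27, adjusted p = 0.0205 by edgeR). The other members of the p53 lists that rose in H460 alone were FDXR, a mitochondrial reductase (difference 1.44), PLK3, a stress-responsive kinase (1.5), and LAMB3, a laminin chain of the basement membrane (1.09). FDXR was called in 1, PLK3 in 2 and LAMB3 in 3 of the 12 fits without 1 library. RAB27B, a GTPase of vesicle secretion, had responses of 0.64 in H460 and -0.54 in H1299, and LTBP2, a matrix protein of the latent TGF-β binding family, 1.19 and -0.24.

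Some other genes that rose in H460 also had very low levels there with siCont, and they were picked after their values were seen. RRAD, a small GTPase with growth-inhibiting activity, measured 0, 0.0352 and 0 CPM with siCont and 0.350, 0.460 and 0.389 CPM with siNGFR in H460. In H1299 RRAD measured 0.907, 1.30 and 1.33 CPM with siCont and 0.472, 0.437 and 1.19 CPM with siNGFR. Its H460 siCont libraries held 0 to 1 count each, so its fitted fold change depends on the prior count and is not given. FCGBP, a mucus-associated protein, measured 0.0462, 0.141 and 0.273 CPM with siCont and 0.550, 0.669 and 0.994 CPM with siNGFR in H460, and 23.3 to 28.9 CPM in the 6 H1299 libraries.

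**Figure D3:**
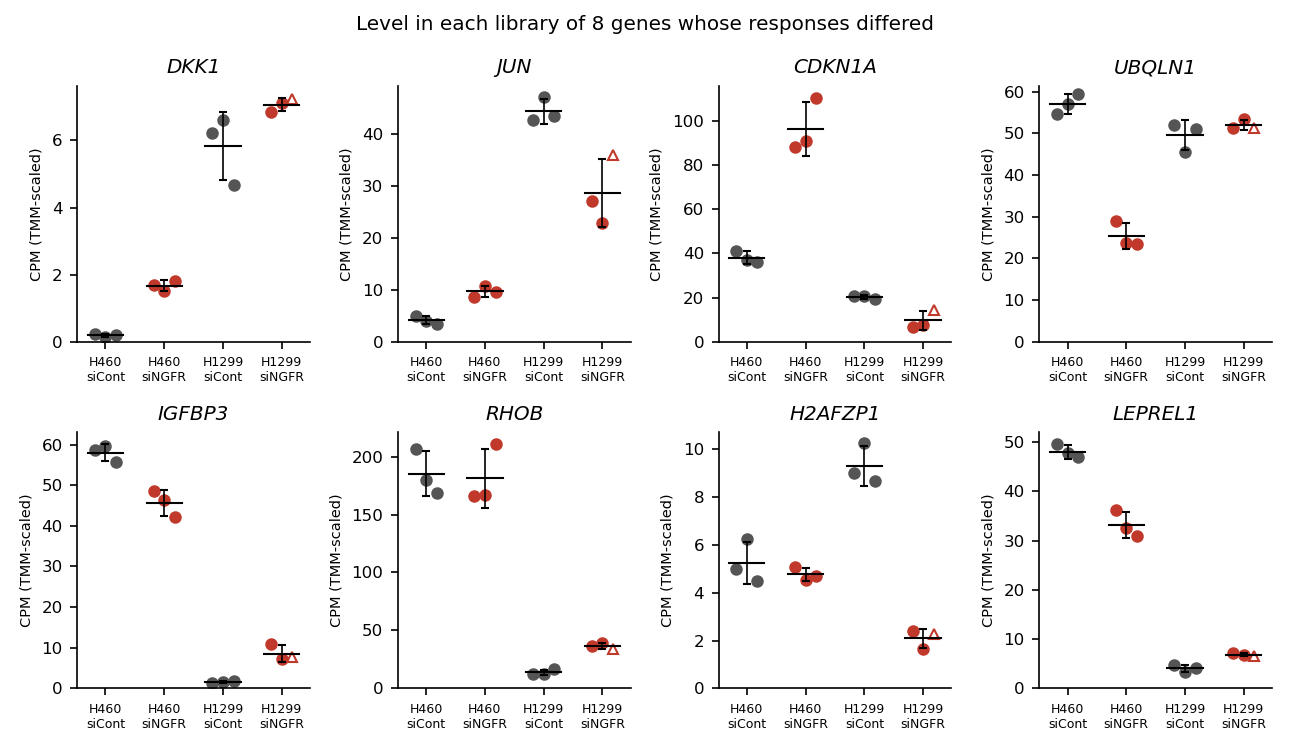
CPM (TMM-scaled, linear axis from 0) in each of the 12 libraries for 8 of the 12 genes called in every fit that left out 1 library, with a bar at the mean and whiskers of 1 SD (n = 3). Grey points are siCont, red points siNGFR, and the open triangle is H1299 siNGFR replicate 3, which lay at 14.5 CPM for CDKN1A between the siCont libraries and the other siNGFR libraries.

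The 41 genes that fell in H460 alone form the largest class. Their median response was -0.89 in H460 and 0.27 in H1299, and 39 of them had a value above 0 in H1299. Of the 41, 37 encode proteins (90.2%, beside 63.8% of all genes tested). The median exon length was 4391 bases beside 3197 for all genes tested. These genes were also better counted, with a median of mean counts of 455 beside 109 for all genes tested. The part of count level in these features was not tested. UBQLN1, a ubiquilin that carries ubiquitinated proteins to the proteasome (chromosome 9, 83659963 to 83708203), measured 54.6, 57.1 and 59.5 CPM with siCont and 28.98, 23.7 and 23.6 CPM with siNGFR in H460. In H1299 UBQLN1 measured 52.1, 45.6 and 51.2 CPM with siCont and 51.4, 53.5 and 51.4 CPM with siNGFR. UBQLN1 therefore had a like level in both lines with siCont, and its H460 siNGFR libraries held fewer CPM than any other library. Its difference was -1.24 (95% interval -1.59 to -0.89, adjusted p = 0.00479 by edgeR).

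CCNI, cyclin I, measured 25.3, 23.8 and 22.6 CPM with siCont and 12.9, 10.8 and 11.6 CPM with siNGFR in H460. In H1299 CCNI measured 17.4, 17.1 and 20.4 CPM with siCont and 22.5, 24.7 and 20.3 CPM with siNGFR, where replicate 3 fell inside the siCont range. The difference of CCNI was -1.32 (95% interval -1.69 to -0.96, adjusted p = 0.00479 by edgeR). PEG10, a paternally expressed gene derived from a retrotransposon, was about as clear. It measured 11.8, 11.8 and 11.4 CPM with siCont and 5.71, 5.06 and 4.06 CPM with siNGFR in H460, against 103 to 129 CPM with siCont and 124 to 147 CPM with siNGFR in H1299 (difference -1.51, adjusted p = 0.00479 by edgeR).

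EMD, which encodes the inner nuclear membrane protein emerin on the X chromosome, measured 31.0, 24.5 and 22.3 CPM with siCont and 10.5, 10.9 and 12.8 CPM with siNGFR in H460. In H1299 EMD measured 13.9, 13.7 and 16.2 CPM with siCont and 16.4, 16.5 and 16.2 CPM with siNGFR. The difference of EMD was -1.35 (95% interval -1.76 to -0.93, adjusted p = 0.00943 by edgeR). PCDH7, a protocadherin of cell adhesion, had a response of -0.80 in H460 and 0.41 in H1299, with no overlap in either line (difference -1.21, adjusted p = 0.00943 by edgeR). COTL1, which binds actin filaments, had a response of -1.11 in H460 and 0.40 in H1299 (difference -1.51, adjusted p = 0.0119 by edgeR, called in 10 of 12 fits without 1 library).

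Other members of this class, picked here after their values were seen, are widely used regulators. CTNNB1, β-catenin, measured 95.2, 90.5 and 97.6 CPM with siCont and 56.8, 57.5 and 54.6 CPM with siNGFR in H460, while in H1299 it lay between 61.9 and 78.5 CPM in all 6 libraries (difference -0.91). RAC1, a GTPase of the actin cytoskeleton, had a difference of -1.05, and VCP, an ATPase that extracts ubiquitinated proteins, had -1.02. CTNNB1 was called in 3, RAC1 in 6 and VCP in 2 of the 12 fits without 1 library. From the lists, the BMP-induced inhibitor ID3 had responses of -0.55 in H460 and 0.47 in H1299, and the macroH2A gene H2AFY had -0.78 and 0.01.

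The 6 genes that rose in H1299 alone all encode proteins and had a median response of 1.52 in H1299 and -0.26 in H460. IGFBP3, a secreted binding protein of insulin-like growth factors that p53 is known to induce, had the smallest p of all genes tested. Its levels in H1299 (chromosome 7, 45912245 to 45921874) were 1.38, 1.57 and 1.73 CPM with siCont and 10.9, 7.11 and 7.71 CPM with siNGFR. Its levels in H460 were 58.7, 59.6 and 55.8 CPM with siCont and 48.5, 46.4 and 42.2 CPM with siNGFR. IGFBP3 was thus 5.55-fold higher with siNGFR in the line without p53, and there all 3 replicates showed it, replicate 3 included. The response was 2.47 (standard error 0.18, adjusted p = 1.49e-05 by edgeR) in H1299 and -0.34 (standard error 0.14, adjusted p = 0.262 by edgeR) in H460. The difference was -2.82 (95% interval -3.31 to -2.33, adjusted p = 6.59e-05 by edgeR).

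RHOB, an endosomal GTPase, measured 12.5, 12.5 and 16.4 CPM with siCont and 36.3, 38.8 and 33.9 CPM with siNGFR in H1299. In H460 RHOB lay between 166 and 211 CPM in all 6 libraries, with the groups overlapping (difference -1.43, 95% interval -1.88 to -0.98, adjusted p = 0.0104 by edgeR). ALPK2, an alpha-kinase, measured 0.821, 0.648 and 0.520 CPM with siCont and 3.96, 3.28 and 1.66 CPM with siNGFR in H1299, against 32.3 to 40.5 CPM in the 6 H460 libraries (difference -2.16, adjusted p = 0.0205 by edgeR, called in 6 of 12 fits without 1 library). IGFBP3, RHOB and ALPK2 shared a high level in H460 and a low one in H1299 in the siCont libraries. The metabolic enzyme H6PD and the transcription factor ATOH8 had differences of -1.31 and -1.17, called in 3 and 1 of those fits.

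**Figure D4:**
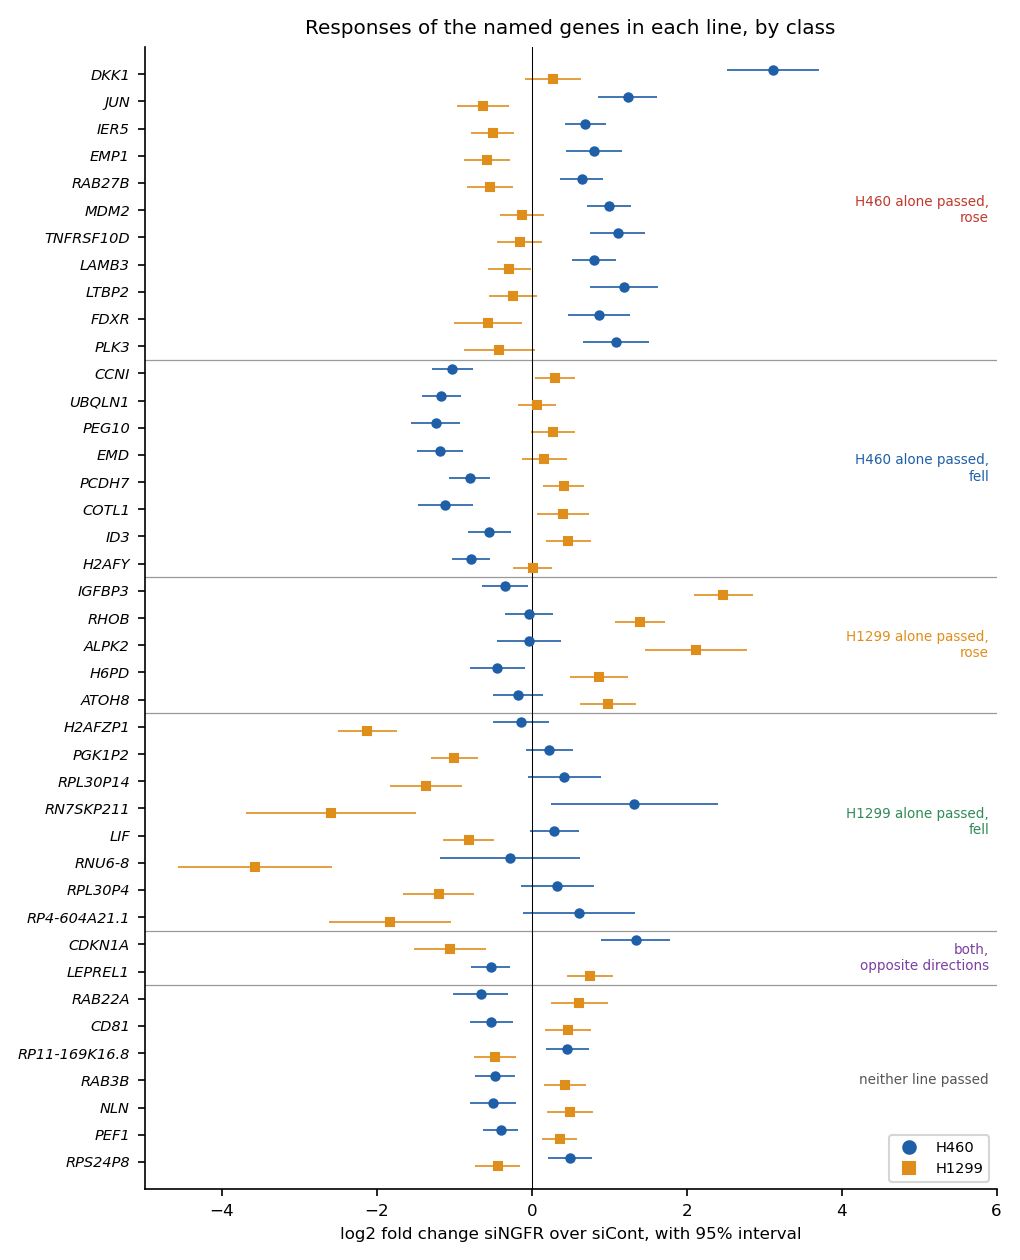
Log2 fold change of siNGFR over siCont in H460 (circles) and H1299 (squares) with 95% intervals for the named genes that differ, grouped by class. The intervals of CDKN1A and LEPREL1 lay on opposite sides of 0, and those of UBQLN1 and MDM2 in H1299 included 0.

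The 9 genes that fell in H1299 alone were of another kind. Only 1 of them, LIF, encodes a protein, while 5 are processed pseudogenes and 3 are short noncoding RNAs, and their median exon length was 333 bases. Of all genes tested, 17.6% are pseudogenes and 4.90% are short noncoding RNAs. LIF, a cytokine and known p53 target, measured 16.7, 17.6 and 18.3 CPM with siCont and 8.69, 8.53 and 12.5 CPM with siNGFR in H1299. In H460 LIF measured 49.4, 42.6 and 40.5 CPM with siCont and 49.3, 52.0 and 60.9 CPM with siNGFR (difference 1.11, adjusted p = 0.0401 by edgeR, called in 2 of 12 fits without 1 library). H2AFZP1, a processed pseudogene of the histone variant gene H2AFZ, was the one called in every such fit. It measured 8.99, 10.3 and 8.67 CPM with siCont and 2.39, 1.64 and 2.25 CPM with siNGFR in H1299, and 4.51 to 6.24 CPM in the 6 H460 libraries (difference 1.98, 95% interval 1.46 to 2.50, adjusted p = 0.00468 by edgeR).

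The share of counts in genes with under 400 bases of exon was higher with siNGFR in H460. In H1299 it was lower in siNGFR replicates 1 and 2, while replicate 3 lay within the siCont range. The share was 43.1% to 48.2% with siCont and 50.5% to 55.6% with siNGFR in H460. It was 48.7% to 53.7% with siCont and 41.7%, 47.2% and 50.6% with siNGFR in H1299. The part of this share in the falls of short RNAs was not tested.

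The values of the pseudogenes are uncertain, since copies share reads with their parents and the sources used here do not give the rule by which reads of near-identical sequences were assigned. The transcript of H2AFZP1 was identical to H2AFZ at 357 of 385 aligned bases (92.7%), and H2AFZ itself had a difference of 0.44 (95% interval -0.24 to 1.12). RPL30P14 and RPL30P4, copies of the ribosomal protein gene RPL30 at 91.95% and 95.5% identity, had differences of 1.79 and 1.53 beside 0.91 for RPL30 (95% interval 0.14 to 1.67). PGK1P2, a copy of the glycolytic gene PGK1 at 94.9%, had 1.23 beside 0.66 for PGK1 (95% interval 0.04 to 1.28). Each copy had the sign of its parent, and none of these parents passed an adjusted p of 0.05. The noncoding RNAs followed the same order. RN7SKP211 measured 4.97, 6.54 and 8.32 CPM with siCont and 0.498, 0.492 and 2.14 CPM with siNGFR in H1299, and its 92.02% identical relative RN7SK, the RNA that holds the elongation factor P-TEFb, had a difference of 1.97 (95% interval 0.27 to 3.67). RNU6-8 is a copy of the U6 spliceosomal RNA identical to RNU6-1 over 106 aligned bases. It measured 2.12, 4.54 and 1.5 CPM with siCont and 0.131, 0.219 and 0.326 CPM with siNGFR in H1299. These siNGFR libraries held 5, 4 and 11 counts of it, and it was called in 2 of the 12 fits without 1 library. RNU6-1 had a difference of 1.82 (95% interval 0.51 to 3.14), which did not pass. Reads within the identical bases cannot tell these copies apart, so RNU6-8 cannot be counted as a separate gene. Among the genes that fell in H460, RAC1P2 (99.3% identical to RAC1), PTMAP5 (98.45% identical to PTMA) and FKBP1C (97.2% identical to FKBP1A) were called together with their parents, so they cannot be counted as separate genes. The strand setting of the counting is not given either, so genes that overlap another gene, such as PEG10 with SGCE, MDM2 with CPM and CTC-479C5.10 with EDC4, may share reads with it.

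The 15 genes called for the difference with neither line passing by itself had a median response of -0.47 in H460 and 0.45 in H1299, and all 15 had opposite signs. RAB22A and RAB3B, GTPases of endosomes and of secretory vesicles, had differences of -1.27 and -0.90. RAB3B measured 108, 108 and 109.8 CPM with siCont and 77.0, 81.5 and 76.6 CPM with siNGFR in H460, while in H1299 it measured 7.99, 7.62 and 10.5 CPM with siCont and 11.7, 12.1 and 11.3 CPM with siNGFR. CD81, a tetraspanin, had responses of -0.53 and 0.47, and the peptidase gene NLN had -0.50 and 0.49. PEF1, a calcium-binding protein, had a difference of -0.76. All 15 had libraries that did not overlap in either line, beside 22.6% of all genes tested in H460 and 19.5% in H1299. These genes were chosen by the contrast of the same libraries, which favours this, so it is a description. Just inside the threshold stood RPS24P8, RP4-604A21.1 and H2AFY, with adjusted p of 0.0483, 0.0483 and 0.0498 by edgeR, and just outside stood NKRF, PRKACA and FBXW10, with 0.0505, 0.0505 and 0.0519. Their differences ran from 0.79 to 2.43 in size inside and from 1.14 to 1.47 outside.

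Sorted by size instead of by test, with a response of more than 1.5-fold taken as moving, 38 of the 92 genes went down in H460 alone, 17 went up in H460 alone, 8 went up in H1299 alone, 6 went down in H1299 alone, 13 moved in both lines in opposite directions and 10 moved in neither. With each line fitted by itself, 49 of the 92 fell in H460, 25 rose in H460, 2 rose and 1 fell in H1299 and 15 passed in neither.

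Of 108 tested members of 6 lists of p53 targets, 9 had a higher response in H460 (CDKN1A, DKK1, FDXR, IER5, LAMB3, LIF, MDM2, PLK3 and TNFRSF10D) and 1 a lower one (IGFBP3), beside 0.158% and 0.269% of all genes. LIF was among them through its fall in H1299, and the other 8 rose in H460. The median difference of the 108 genes was 0.26 beside -0.01 for all genes tested, with a median response of 0.33 in H460 and 0.03 in H1299. In H460, 22 of the 108 rose and 3 fell, and in H1299, 4 rose and 2 fell, where 0.903% and 1.23% of all genes rose and fell in H460 and 0.297% and 0.204% in H1299. By library size without TMM, which moved the median difference of all genes to -0.50, the list stood at -0.22, or 0.28 above that median, beside 0.27 above it with TMM. Cell cycle arrest had 2 of 16 members higher in H460, apoptosis and death receptors 1 of 20, metabolism with redox balance and autophagy 1 of 20, feedback regulators 1 of 9, secreted proteins and others 4 of 36, and DNA repair 0 of 10.

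Single p53 targets did not all follow. BAX, a pore-forming apoptosis effector, had responses of 0.45 in H460 and -0.53 in H1299, and its difference of 0.98 (95% interval 0.34 to 1.63) had an adjusted p of 0.142 by edgeR. In H1299 BAX measured 20.9, 27.0 and 27.9 CPM with siCont and 14.6, 12.2 and 25.2 CPM with siNGFR, so replicate 3 lay within the siCont range. BBC3, which encodes PUMA, had responses of 0.41 and 0.48, and its difference was -0.07 (95% interval -0.83 to 0.70). BTG2, an antiproliferative gene, measured 1.48, 1.23 and 1.16 CPM with siCont and 5.55, 5.73 and 6.48 CPM with siNGFR in H460. In H1299 BTG2 had 0 counts in every siCont library and 4, 0 and 2 counts in the siNGFR libraries, so no fold change can be set beside the one in H460.

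Few other lists had called members, where 0.158% of all genes tested were called higher and 0.269% lower in H460. At those shares most lists of these sizes would hold no called gene, so a list without one says little about its genes. JUN was the 1 of 26 AP-1 and immediate-early genes, DKK1 the 1 of 10 Wnt feedback genes, LTBP2 and ID3 the 2 of 16 TGF-β response genes (in opposite directions), LAMB3 the 1 of 24 matrix and adhesion genes, H2AFY the 1 of 19 variant histones and chaperones, and RNU6-8 the 1 of 19 RNAs of RNA polymerase III. No member was called among 24 G2/M genes, 24 S-phase genes, 14 RAS-MAPK feedback genes, 20 interferon-stimulated genes, 18 NF-κB targets, 24 NRF2 targets, 20 genes of the integrated stress and unfolded protein responses, 15 chaperones, 20 genes of cholesterol and fatty acid synthesis, 20 of hypoxia and glycolysis, 11 neurotrophin genes, 3 metallothioneins, 40 ribosomal protein genes, 18 spliceosomal RNAs of RNA polymerase II or 12 mitochondrially encoded mRNAs. The median difference was -0.01 for all genes tested, 0.51 for ribosomal proteins, 0.84 for the RNAs of RNA polymerase III, 0.75 for the spliceosomal RNAs, 0.41 for RAS-MAPK feedback genes and -0.66 for the mitochondrially encoded mRNAs. By library size alone the medians of these lists were 0.05, 0.37, 0.34, -0.06 and -1.20, so that of the RAS-MAPK list changed sign while all kept their side of the median of all genes. With TMM the spliceosomal RNAs had a median response below 0 in both lines, at -0.99 in H460 and -1.76 in H1299.

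Among the fits with a library left out, the number of genes that differ was largest without the library of H1299 siNGFR replicate 3. Without it, with 11 libraries, 2049 of 22006 genes (9.31%) had a higher response in H460 and 1906 (8.66%) a lower one, all 92 genes of the full comparison among them. The classes then changed weight from H460 to H1299. Of the 3955 genes, 1683 fell and 1369 rose in H1299 alone, 166 fell and 80 rose in H460 alone, 132 moved in opposite directions, 46 in the same direction, and 479 passed in neither line. Of the 41 genes that fell in H460 alone with all libraries, 18 remained in that class and 23 became opposite movers. Of the 19 that rose there, 12 remained and 7 became opposite movers, among them JUN, IER5, EMP1 and FDXR. All 6 genes that rose in H1299 alone remained in their class.

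The place of replicate 3 is given as a description, since genes were sorted here by calls made with or without it, which bears on where it lies. On a scale from 0 at the siCont mean to 1 at the mean of siNGFR replicates 1 and 2, its median position was 0.65 for the 6 genes called as rising in H1299 with all libraries and 0.69 for the 9 called as falling. For 1366 genes called as rising in H1299 without it the median position was 0.20, and for 1668 called as falling it was 0.14. Its share of counts in genes with under 400 bases of exon was 50.6%, against 41.7% and 47.2% in siNGFR replicates 1 and 2 and 48.7% to 53.7% in the siCont libraries. Its part in the result was not tested. NGFR was too low in every library to check the label of this one.

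The genes that fell in H1299 without that library were short. Their median exon length was 625 bases beside 3147 for all genes tested. Of the 1683, 592 (35.2%) encode proteins, 576 (34.2%) are pseudogenes and 378 (22.5%) are short noncoding RNAs. Of all genes tested in that fit, these kinds made up 63.1%, 17.8% and 5.03%. The genes that rose in H1299 had a median of 5804 bases, and 1199 of 1369 encode proteins. Their median of mean counts was 394 beside 103 for all genes tested in that fit. RPL37A, a protein of the large ribosomal subunit, measured 364, 445 and 365 CPM with siCont, 49.0 and 57.9 CPM in siNGFR replicates 1 and 2 and 309 CPM in replicate 3, while in H460 it lay between 286 and 445 CPM. PHPT1, a protein histidine phosphatase, measured 76.3, 89.8 and 87.7 CPM with siCont, 21.5 and 17.7 CPM in replicates 1 and 2 and 77.5 CPM in replicate 3. Both genes had replicate 3 beside the controls and a fall of several-fold in the other replicates. RNU4-1, the U4 spliceosomal RNA, fell in both lines in this fit, with responses of -0.93 in H460 and -3.68 in H1299.

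By list, 21 of 40 ribosomal protein genes had a higher response in H460 without replicate 3, all 21 with a fall in H1299 and no call in H460, and 15 of 18 spliceosomal RNAs, 9 of 19 RNAs of RNA polymerase III and 6 of 14 RAS-MAPK feedback genes were higher, with none lower in these 4 lists. For the spliceosomal RNAs the median response was below 0 in both lines, at -0.975 in H460 and -2.59 in H1299, so higher here means a smaller fall. Among the mitochondrially encoded mRNAs 5 of 12 were lower. Of the 108 p53 targets 23 were higher and 6 lower, beside 9.31% and 8.66% of all genes, with a median difference of 0.22 beside -0.09. BAX was among the 23, with an H1299 response of -0.81.

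**Figure D5:**
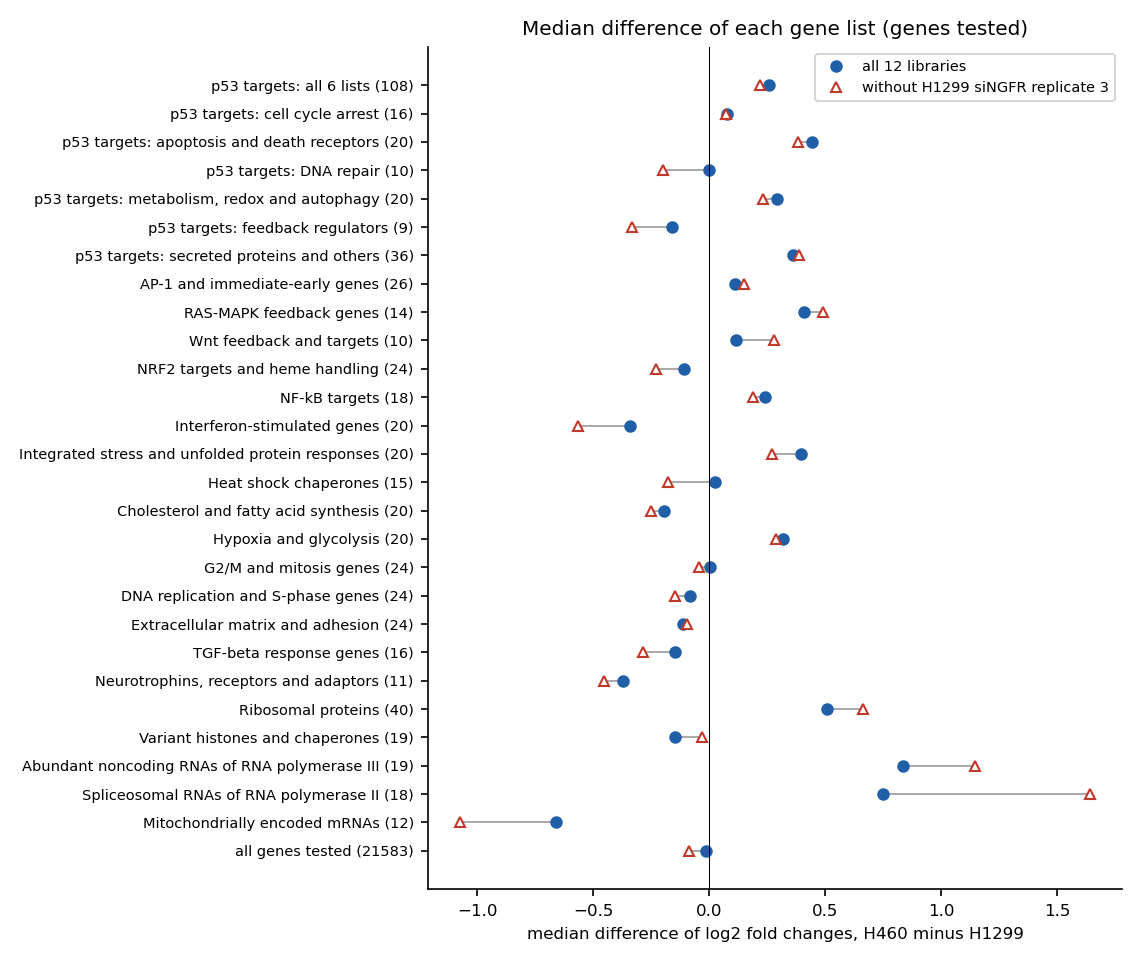
Median difference of log2 fold changes (H460 minus H1299) over the tested genes of each list with at least 9 of them, with all 12 libraries (circles) and without H1299 siNGFR replicate 3 (triangles), and the number of genes tested in brackets. The spliceosomal RNAs of RNA polymerase II moved from 0.75 to 1.64 and the p53 targets from 0.26 to 0.22.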

How the data were processed

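Total RNA of 12 libraries, 3 for each of 4 groups, was sequenced after removal of ribosomal RNA (Ion Total RNA-Seq Kit v2 libraries). The deposited table holds raw read counts per gene that the authors made with STAR, Bowtie2 and hg38, as named in the submitters' processing notes. The sources used here do not give the counting tool or its strand setting. The authors' EBSeq tables of probabilities and fold changes were not used, nor were 24 other columns of values per sample. The H460 columns are numbered 4 to 6 and were matched to their group only, and these numbers name the H460 replicates here.

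Counts were tested with edgeR 4.0.16 in R 4.3.3 (filterByExpr, TMM, glmQLFit, glmQLFTest, 2-sided, 1 mean per group, 8 residual degrees of freedom before moderation), with Benjamini-Hochberg adjustment over 21583 genes and a threshold of 0.05. The same fit gave each line's response. Alternatives were other scalings and filters, DESeq2 1.42.0, limma 3.58.1 voom with sample weights, repeated rows left out, each library left out, a replicate block and each line fitted by itself. The code was tested on simulated data. Libraries held 16672164 to 36116823 counts, and the median SD of log2 CPM within groups was 0.148 to 0.212. Gene types and positions came from GENCODE by gene ID (56591 of 64253 matched).

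Named genes were, in each class, up to 6 with the smallest p and a mean of at least 50 counts, called members of the gene lists, p53 targets that the study assayed by q-PCR, NGFR, and the 3 genes on each side of the threshold. A further gene under this rule is not reported here. Without H1299 siNGFR replicate 3 up to 3 genes per class were chosen by the same rule, an addition made after seeing the data. The classes, the gene lists and the comparison were chosen with earlier results of these data known.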

Additional observations from a re-analysis of the deposited data

Results flagged for a closer look

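Each gene called for the difference has responses to NGFR siRNA that differ between the lines by the test of the difference itself, and these are 34 genes with a higher and 58 with a lower response in H460. The values that follow are differences of log2 fold changes, H460 minus H1299, for the 41 called genes under the rule for named genes, all with an adjusted p under 0.05 by edgeR's quasi-likelihood test. Single libraries were not tested as outliers within groups of 3.

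Of the genes that moved in opposite directions, CDKN1A had a difference of 2.40 and LEPREL1 of -1.29. Of the genes that rose in H460 alone, the differences were 2.83 for DKK1, 1.86 for JUN, 1.20 for IER5, 1.38 for EMP1, 1.18 for RAB27B, 1.12 for MDM2, 1.27 for TNFRSF10D, 1.09 for LAMB3, 1.43 for LTBP2, 1.44 for FDXR and 1.5 for PLK3. Of those that fell in H460 alone, they were -1.32 for CCNI, -1.24 for UBQLN1, -1.51 for PEG10, -1.35 for EMD, -1.21 for PCDH7, -1.51 for COTL1, -1.02 for ID3 and -0.794 for H2AFY.

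Of the genes that rose in H1299 alone, the differences were -2.82 for IGFBP3, -1.43 for RHOB, -2.16 for ALPK2, -1.31 for H6PD and -1.17 for ATOH8. Of those that fell in H1299 alone, they were 1.98 for H2AFZP1, 1.23 for PGK1P2, 1.79 for RPL30P14, 3.92 for RN7SKP211, 1.11 for LIF, 3.29 for RNU6-8, 1.53 for RPL30P4 and 2.43 for RP4-604A21.1. Of those that passed in neither line by itself, they were -1.27 for RAB22A, -0.995 for CD81, 0.937 for RP11-169K16.8, -0.902 for RAB3B, -0.996 for NLN, -0.76 for PEF1 and 0.928 for RPS24P8.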

How the results depend on the processing

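With all alternatives, the difference kept its sign for each of the 92 genes that was tested in them. The genes were chosen by this difference and each alternative reuses all or most of the same libraries, which favours a kept sign. It is given as a description. The numbers of genes with a higher and a lower response in H460 (34 and 58) were 157 and 2885 by library size only, 76 and 95 with protein-coding genes only, 675 and 719 with no filter, 194 and 265 with DESeq2, and 2887 and 2062 with limma voom and sample weights. Library size only, which moved the median difference of all genes to -0.50, placed 5.161% of its calls on the higher side, beside 36.96% with TMM, 48.42% with no filter, 58.34% with voom and 62.0% with the replicate block. With 1 library left out the numbers ran from 4 to 2049 higher and from 8 to 1906 lower, and both highest values came without H1299 siNGFR replicate 3. The cause was not tested. Of the 41 called genes under the rule for named genes, DESeq2, voom and the fit without that library kept 41, library size only kept 34, and the fit without H460 siNGFR replicate 5 kept 12. RRAD, named outside the rule, had no adjusted p in DESeq2.

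Deviations from the group means of same-numbered siCont and siNGFR libraries had r of -0.0373, 0.116 and -0.0444 in H460 and 0.358, -0.258 and 0.114 in H1299. The labels do not say whether these libraries were paired, and so few values cannot decide it. With a replicate block for these pairs, 31 genes were higher and 19 lower, 36 of the 92 among them, and 26 of those 41 named genes were called.

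Of genes not called, BBC3 had a difference of 0.0145 with protein-coding genes only, with the sign turned. The fitted value of BTG2, -1.60 with edgeR and 0.59 with voom, rests on 0 counts in H1299 siCont and measures no difference. With 1 library left out, BBC3 ran from -0.24 without H460 siCont replicate 5 to 0.24 without H460 siCont replicate 6, and it was 0.05 without H460 siNGFR replicate 5. Depth limits the genes near 0 counts, such as NGFR in every library and BTG2 in H1299.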
